A study of Mus musculus with 10 samples.

Results

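The 10 core and naive pluripotency transcription factors of mouse embryonic stem cells, namely Pou5f1 (Oct4), Sox2, Nanog, Klf2, Klf4, Klf5, Esrrb, Tbx3, Tfcp2l1 and Zfp42 (Rex1), were followed through the making of germ cells. They were taken by gene symbol from a table of 36066 genes, and all 10 were present and passed the filter on low values that left 27259 genes. RNA-seq was done on 5 groups of C57BL6 cells with 2 libraries each. ESC was a female embryonic stem cell line and pESC a parthenogenetic one, made from an activated egg without a sperm, so that both sets of its chromosomes are maternal. ESC-PGCLC and pESC-PGCLC were cells resembling primordial germ cells (PGCLCs) made from those lines, by 2 days of conversion to epiblast-like cells and 4 days with BMP4 at 500 ng/mL, SCF, EGF and LIF per the labels. The study also aggregated PGCLCs with gonadal somatic cells, and the labels do not say whether these libraries were taken before or after that step. PGC was primordial germ cells, the embryonic precursors of eggs and sperm, taken from female embryos, and its labels give no embryonic day, while the study describes PGCs of 2 embryonic stages. By the methods, PGCLCs were purified by sorting with antibodies to surface markers (CD61 and SSEA1). PGCs were sorted with both antibodies or with magnetic beads to SSEA1 alone, and which was used for these libraries is not stated. None of the 10 genes was thus used to pick the cells. Each stem cell group stands for 1 line, as labelled. The study calls its RNA-seq libraries biological replicates, but the labels do not say whether they came from separate cultures or litters, so the p-values measure the spread between these libraries.

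Pou5f1, Sox2 and Nanog form the core of the pluripotency network, in which Pou5f1 and Sox2 bind side by side on DNA as a pair and each of the genes is among the targets of the others. Klf2, Klf4, Klf5, Esrrb, Tbx3, Tfcp2l1 and Zfp42 belong to the naive layer around that core, which is high in stem cells kept with LIF or with kinase inhibitors and is turned down as the epiblast becomes primed. Mouse primordial germ cells are known to express Pou5f1, Sox2 and Nanog again while they take up a germ cell programme, and Pou5f1 is needed for their survival.

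The sites by which the core pair is recognised were looked for in 250 bases upstream of the gene starts (RefSeq, GRCm38.p6), and 3 windows are shown because they hold an octamer match, the letters bound by Pou5f1. Windows were given for 8 of the 10 genes (11 windows, with more than 1 start for some genes), and Klf5 and Tbx3 have no entry. Capitals mark the octamer (ATGCAAA) and the SOX site (CATTGT), read on either strand.
Nanog, chr6:122707239-122707488, plus strand: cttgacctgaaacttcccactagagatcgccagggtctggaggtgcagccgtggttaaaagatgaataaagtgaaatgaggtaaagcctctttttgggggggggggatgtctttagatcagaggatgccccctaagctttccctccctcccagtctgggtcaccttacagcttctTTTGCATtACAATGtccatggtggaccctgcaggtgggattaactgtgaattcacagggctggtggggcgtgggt
Zfp42, chr8:43307010-43307259, minus strand: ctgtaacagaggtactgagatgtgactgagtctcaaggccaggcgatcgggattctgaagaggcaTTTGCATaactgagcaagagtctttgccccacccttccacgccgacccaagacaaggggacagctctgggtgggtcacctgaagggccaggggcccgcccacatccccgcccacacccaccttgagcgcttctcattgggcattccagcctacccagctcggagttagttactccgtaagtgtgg
Sox2, chr3:34649745-34649994, plus strand: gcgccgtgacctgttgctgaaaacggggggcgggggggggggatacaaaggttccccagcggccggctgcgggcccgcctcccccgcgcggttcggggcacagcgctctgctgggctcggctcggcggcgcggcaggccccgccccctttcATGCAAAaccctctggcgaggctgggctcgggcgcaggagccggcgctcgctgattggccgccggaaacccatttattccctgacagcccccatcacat
The octamer was found in 4 of the 11 windows of these genes (the overlapping pair of Nanog, Sox2 and Zfp42) and in 4.12% of 32851 windows of all genes. The SOX letters were found in 3 of the 11, both of Nanog and the second of Pou5f1, against 10.7% of all windows. In the Nanog window shown, which ends at the base before the first exon, the SOX match and the octamer lie on the minus strand with 1 base between them. That spacing in that order was found in 2 of the 32851 windows (0.00609%), and both were the overlapping windows of Nanog, which hold the same site. The spacing was not among the motifs planned for the search. The letters of the ESRRB site (AAGGTCA) were in 0 of the 11 windows and in 4.08% of all, and the KLF letters (CACCC) were in 6 of the 11 and in 52.0% of all. A match is a string of letters in the window, and binding was not measured here.

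The labelled cell types were first set against their markers. The summed level of 9 germ cell genes (Dppa3, Dazl, Ddx4, Sycp3 and others) lay between 402 and 951 TPM in the stem cell libraries and between 6103 and 9533 TPM in the 6 germ cell libraries, and none of the 9 was at 0 in both libraries of any group. Dazl was at 1664 and 1821 TPM in ESC-PGCLC, 1084 and 1115 TPM in pESC-PGCLC and 1958 and 2095 TPM in PGC. Sycp3 was at 1702 and 1651 TPM, 867 and 685 TPM and 666 and 973 TPM in the same order. ESC-PGCLC thus held Dazl somewhat below and Sycp3 above the PGC levels. Dnd1, another of the 9, was at 23.4 and 29.9 TPM in ESC-PGCLC and 46.1 and 39.6 TPM in PGC. Of the 9 genes, 5 had positive and 4 negative differences in PGC against ESC-PGCLC. In that comparison 1 was called, lower in PGC, where 13.8% of all genes tested were called in either direction. The germ cell stage of the PGCLC libraries was not tested. Depth, as reads on genes recovered from the table, was 6779838 to 18572901, with both ESC-PGCLC libraries the shallowest. Markers of other cells also differed between groups. The sum of 8 blood genes, mainly globins, was 0.115 to 4.10 TPM in stem cells, 437 to 504 TPM in ESC-PGCLC, 2230 to 2762 TPM in pESC-PGCLC and 1704 to 1890 TPM in PGC, while Ptprc, the pan-leukocyte surface gene, was at or below 0.103 TPM in every library. The sum of 7 gonadal somatic genes was 7.09 to 9.25 TPM in stem cells, 18.4 to 22.3 TPM in ESC-PGCLC, 42.2 to 47.8 TPM in pESC-PGCLC and 80.1 to 104 TPM in PGC. Fibroblast genes (8) summed to 0.193 to 0.512 TPM in stem cells and 4.08 to 4.47 TPM in ESC-PGCLC. Their sum was 8.24 to 10.3 TPM in pESC-PGCLC and 10.4 to 11.8 TPM in PGC. Endothelial genes (6) summed to 6.36 to 7.74 TPM in stem cells and 7.34 to 9.02 TPM in ESC-PGCLC. In pESC-PGCLC that sum was 10.6 to 12.6 TPM and in PGC 15.4 to 25.9 TPM. Primed epiblast genes (6) summed to 4.44 to 11.6 TPM over all libraries. The part of these other cells in the results below was not tested, and in bulk libraries fewer cells of a type and less RNA per cell cannot be told apart.

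Across the series, 7 of the 10 factors (Pou5f1, Nanog, Klf2, Klf4, Tbx3, Tfcp2l1 and Zfp42) were lower in each of the 6 germ cell libraries than in any of the 4 stem cell libraries, a pattern found in 10.5% of all genes tested. Sox2 and Klf5 did not follow it, and Esrrb overlapped through 1 PGC library. The summed level of the 10 factors was 687 to 1092 TPM in stem cells and 155 to 261 TPM in germ cells. Its make-up differed as well. Nanog held 48.9% to 61.8% of the sum in stem cells and 10.8% to 20.7% in germ cells, whereas Sox2 held no more than 7.56% in stem cells, 42.4% and 43.4% in ESC-PGCLC, 31.9% and 32.5% in PGC and 15.4% and 17.5% in pESC-PGCLC. Zfp42 was the highest of the 10 in both pESC-PGCLC libraries and Sox2 in both ESC-PGCLC libraries.

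**Figure D1:**
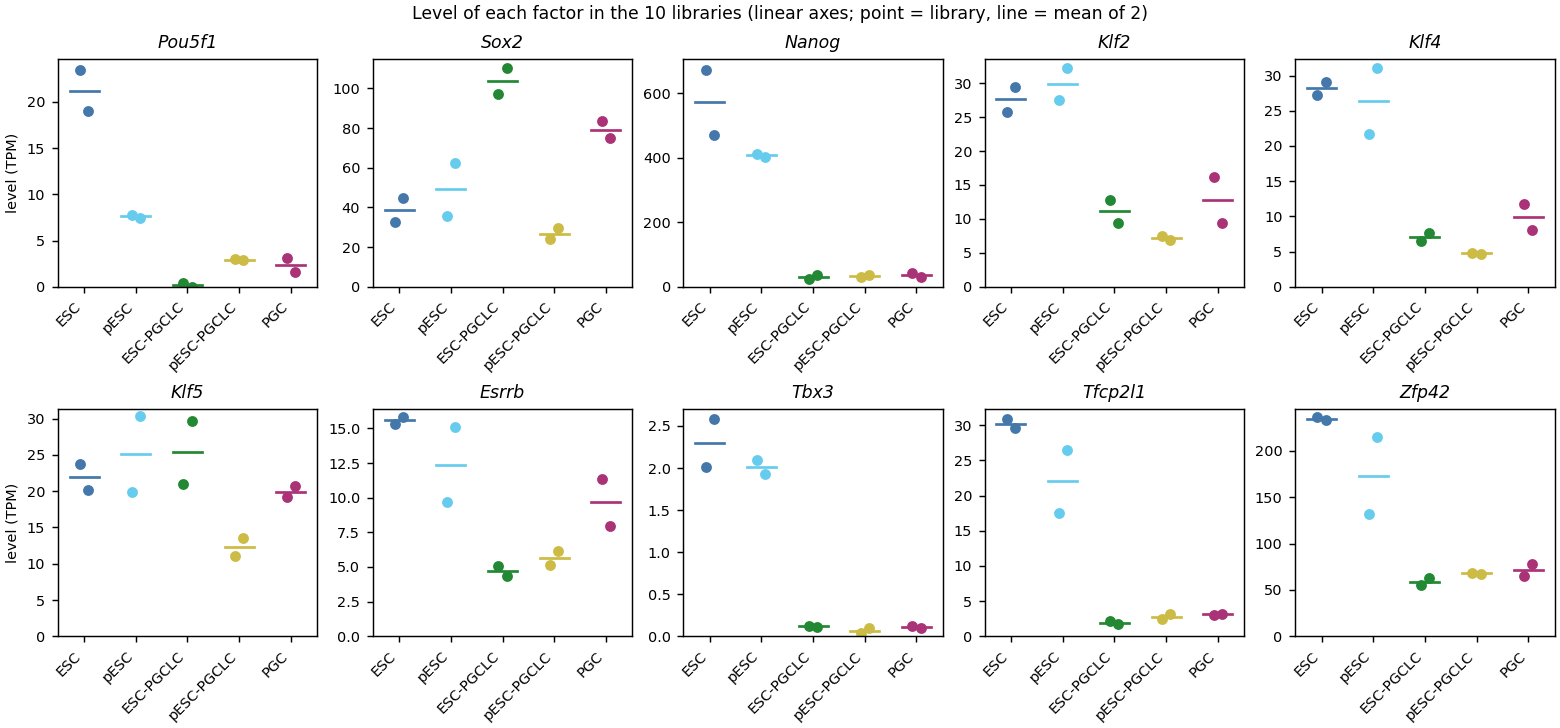
Level (TPM, linear axes that start at 0 and differ between panels) of each factor in the 10 libraries, with points for libraries and lines for group means. Sox2 is the one panel where ESC-PGCLC and PGC sit above all stem cell libraries, and Pou5f1 in ESC-PGCLC sits at the axis.

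**Figure D2:**
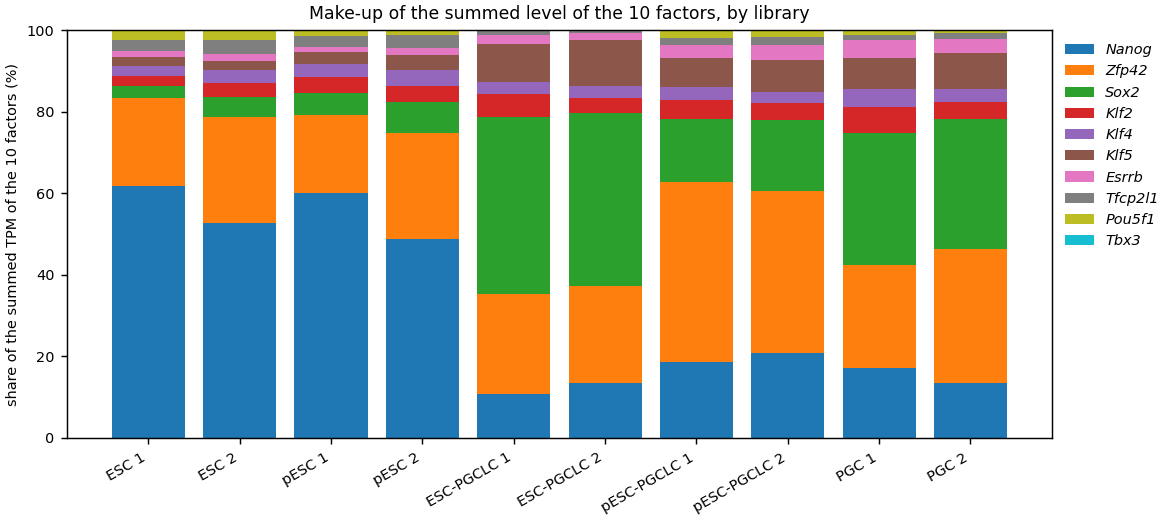
Share (%) of the summed TPM of the 10 factors held by each factor, with 1 bar for each library. Nanog is the broadest band in the 4 stem cell bars, Sox2 in ESC-PGCLC and Zfp42 in pESC-PGCLC.

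The core factors were read first. Pou5f1, the POU-domain factor that binds the octamer, was at 23.5 and 19.0 TPM in ESC, 7.80 and 7.49 TPM in pESC, 0.374 and 0 TPM in ESC-PGCLC, 2.98 and 2.88 TPM in pESC-PGCLC and 3.14 and 1.63 TPM in PGC. Both ESC-PGCLC libraries were below every other library, and pESC-PGCLC and PGC overlapped. The ESC-PGCLC values rest on 4 reads in one library and 0 in the other, where 3 reads would be 0.328 TPM, against 57 and 61 reads in pESC-PGCLC and 45 and 33 in PGC. The summed 4 reads have an exact 95% Poisson interval of 1.09 to 10.2 reads and the 118 of pESC-PGCLC one of 97.7 to 141 reads, which cover counting error alone. On the log2(TPM + 1) scale, Pou5f1 was higher in pESC-PGCLC than in ESC-PGCLC by 1.75 ± 0.26 (SE, adjusted p = 0.00236, limma) and higher in PGC than in ESC-PGCLC by 1.49 ± 0.26 (adjusted p = 0.00525). These differences understate a ratio of low levels, and both share the ESC-PGCLC libraries. PGC and pESC-PGCLC differed by -0.25, with a 95% interval of -0.85 to 0.34 and an adjusted p of 0.563.

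Pou5f1 (chr17:35506018-35510772, plus strand, GRCm38) shares 14.1% of its exon bases with Gm19553, an annotated gene on the opposite strand (chr17:35509077-35510551), and without strand information reads of the pair cannot be told apart. Gm19553 had 322 and 368 reads in ESC, 125 and 113 in pESC, 4 and 0 in ESC-PGCLC, 45 and 42 in pESC-PGCLC and 39 and 27 in PGC. Where Pou5f1 had reads, Gm19553 had 0.663 to 1.00 times as many, on 494 exon bases. In ESC its level was 70.8 and 62.7 TPM, above the 23.5 and 19.0 TPM of Pou5f1. Whether the authors' counting of reads on the shared bases left Pou5f1 under-counted was not tested. The Pou5f1 levels, ratios and shares given here rest on the values as deposited. With the reads of the pair put together, the difference of pESC-PGCLC from ESC-PGCLC was 2.14 (adjusted p = 0.00232) and that of PGC from ESC-PGCLC 1.91 (adjusted p = 0.00446).

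**Figure D3:**
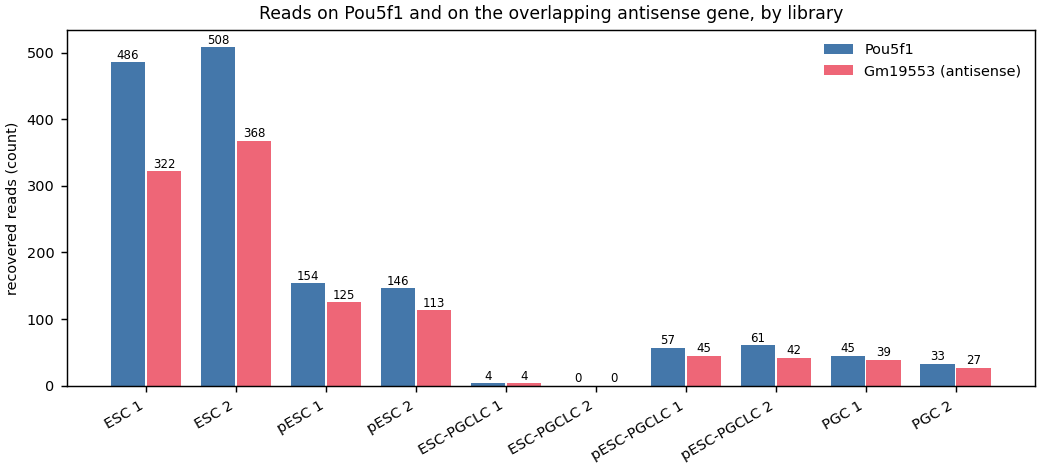
Reads (counts recovered from the table) on Pou5f1 and on the antisense gene Gm19553 in each of the 10 libraries. Both genes have 4 reads or fewer in the ESC-PGCLC libraries and 27 to 61 in pESC-PGCLC and PGC.

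Sox2, the HMG-box partner of Pou5f1, took another course. It stood at 32.7 and 44.6 TPM in ESC, 35.9 and 62.4 TPM in pESC, 97.3 and 110 TPM in ESC-PGCLC, 23.9 and 29.7 TPM in pESC-PGCLC and 83.4 and 75.1 TPM in PGC. The ESC-PGCLC and PGC libraries were above all stem cell libraries, and the pESC-PGCLC libraries were below all others. Sox2 was lower in pESC-PGCLC than in ESC-PGCLC by a log2 difference of -1.92 ± 0.27 (3.88-fold between mean TPM, adjusted p = 0.00188) and higher in PGC than in pESC-PGCLC by 1.54 ± 0.27 (adjusted p = 0.0240). The second of these calls was lost when the compared groups were fitted alone (adjusted p = 0.0700) and on leaving out either ESC library, either pESC-PGCLC library or PGC library 1 (adjusted p of 0.0532 to 0.122), with a difference of 1.39 to 1.68 over all libraries left out in turn. PGC and ESC-PGCLC differed by -0.39 (95% interval -1.01 to 0.24, adjusted p = 0.320). Set side by side as ratios of TPM, Sox2 was 26.6 and 46.2 times Pou5f1 in PGC and 8.03 and 10.3 times in pESC-PGCLC. It was 1.39 to 8.32 times in stem cells. In ESC-PGCLC library 1 it was 260 times, which rests on 4 Pou5f1 reads, and library 2 had 0 reads and gives no ratio.

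Nanog, the homeobox factor that holds cells in the naive state, was at 674 and 470 TPM in ESC, 412 and 403 TPM in pESC, 24.2 and 35.0 TPM in ESC-PGCLC, 28.8 and 35.1 TPM in pESC-PGCLC and 43.8 and 31.4 TPM in PGC. The 3 germ cell groups overlapped with one another and were far below the stem cells. Their differences were 0.12 to 0.34 on the log2 scale with adjusted p of 0.356 to 0.795, and the 95% intervals spanned -0.47 to 0.93 over the 3 comparisons, so differences just under 2-fold lay inside them. Even so, Nanog stayed at the 88.2 to 91.3 percentile of tested genes in germ cell libraries, against 98.6 to 99.1 in stem cells.

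Each PGCLC group was then compared with the line it was made from, and PGC with ESC. In ESC-PGCLC against ESC, 8 of the 10 factors fell and 1 rose, where 14.5% of all tested genes were called lower and 15.3% higher. In pESC-PGCLC against pESC, 7 fell (6.80% of all genes lower, 20.8% higher), and in PGC against ESC, 7 fell and 1 rose (9.17% lower, 23.4% higher). Calls required both 2-fold or more and an adjusted p (limma) below 0.05. The median log2 difference of the 10 factors was -1.71, -1.40 and -1.50 in the 3 comparisons, against 0.05, 0.22 and 0.25 for all tested genes. The first and the third share the ESC libraries.

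Nanog fell by 4.23 ± 0.25 on the log2 scale in ESC-PGCLC, by 3.64 in pESC-PGCLC and by 3.89 in PGC (largest adjusted p = 3.12e-05). Pou5f1 fell by 4.24 ± 0.26 in ESC-PGCLC (adjusted p = 1.03e-05), by 1.14 in pESC-PGCLC (adjusted p = 0.00781, or 0.127 with a pseudocount of 0.1 TPM) and by 2.75 in PGC (adjusted p = 7.49e-05). Sox2 rose by 1.42 ± 0.27 in ESC-PGCLC (adjusted p = 0.00313) and by 1.03 ± 0.27 in PGC (adjusted p = 0.0130), and its difference in pESC-PGCLC was -0.81 (adjusted p = 0.0409, under 2-fold). That difference was called lower with quantile normalization (-1.20), median centring (-1.54), voom on recovered reads (-1.12) and without pESC library 1 (-1.20). The rise in PGC was no longer called with median centring (0.44), or without ESC library 1 (0.81) or PGC library 1 (0.96). Nor was it called with quantile normalization (1.00, limma adjusted p = 0.00819) or with voom on recovered reads (0.85, limma adjusted p = 0.00526).

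**Figure D4:**
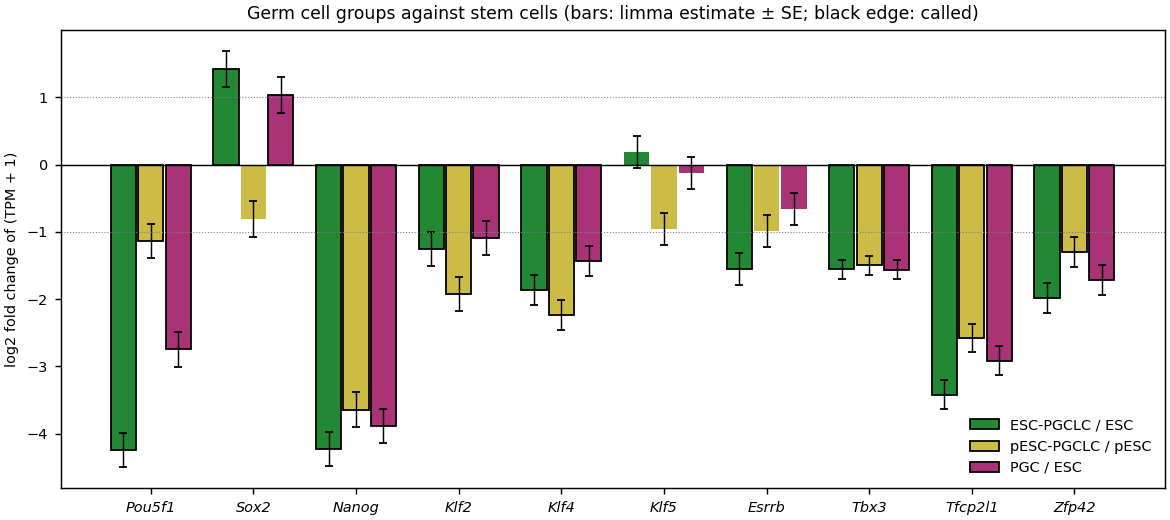
Log2 fold change of (TPM + 1) for each factor in ESC-PGCLC against ESC, pESC-PGCLC against pESC and PGC against ESC, with bars for limma estimates, whiskers for standard errors, black edges for called changes and dotted lines at 2-fold. The Sox2 bars point up in ESC-PGCLC and PGC and down in pESC-PGCLC, and the Pou5f1 bars run from -4.24 to -1.14.

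Among the naive factors, Tfcp2l1, a grainyhead-family factor that acts under LIF and STAT3, had levels of 30.9 and 29.6 TPM in ESC, 17.5 and 26.5 TPM in pESC, 2.12 and 1.74 TPM in ESC-PGCLC, 2.43 and 3.16 TPM in pESC-PGCLC and 3.09 and 3.20 TPM in PGC. All 6 germ cell libraries were below all 4 stem cell libraries. It fell by 3.42 ± 0.21 in ESC-PGCLC, 2.58 in pESC-PGCLC and 2.91 in PGC on the log2 scale (largest adjusted p = 6.00e-05). Tbx3, a T-box repressor of differentiation genes, was at 2.02 and 2.58 TPM in ESC and 2.10 and 1.93 TPM in pESC, and at 0.0355 to 0.127 TPM in the 6 germ cell libraries. It fell in each of the 3 comparisons (log2 changes of -1.57 to -1.50), and the germ cell values rest on 2 to 6 reads in a library, so no fold between germ cell groups is given for this gene, though it is among the 10 in the counts and medians of those comparisons.

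Zfp42, a zinc finger gene long used as a marker of the undifferentiated state, was at 236 and 233 TPM in ESC, 132 and 215 TPM in pESC, 55.1 and 62.4 TPM in ESC-PGCLC, 68.4 and 67.3 TPM in pESC-PGCLC and 64.9 and 77.6 TPM in PGC. It was the naive factor with the highest level in every library. It fell by 1.98 ± 0.22 in ESC-PGCLC (adjusted p = 0.000194), by 1.30 in pESC-PGCLC (adjusted p = 0.00198) and by 1.71 in PGC (adjusted p = 0.000379), and the pESC-PGCLC call was lost without pESC library 2 (-0.95). Esrrb, an orphan nuclear receptor of the naive network, was at 15.3 and 15.8 TPM in ESC, 9.65 and 15.1 TPM in pESC, 5.04 and 4.35 TPM in ESC-PGCLC, 5.15 and 6.13 TPM in pESC-PGCLC and 11.3 and 7.98 TPM in PGC. PGC was the germ cell group with the highest Esrrb, and 1 of its libraries was above pESC library 1. Esrrb fell in ESC-PGCLC by 1.55 ± 0.24 (adjusted p = 0.00105), and its differences in pESC-PGCLC (-0.98, adjusted p = 0.0107, 2.19-fold lower in mean TPM) and PGC (-0.66, adjusted p = 0.0495) were under 2-fold on the log2(TPM + 1) scale. The first was called with a pseudocount of 0.1 TPM (-1.09), quantile normalization (-1.62), median centring (-1.71), voom (-1.39) and without pESC library 1 (-1.28) or pESC-PGCLC library 2 (-1.09), and the second with quantile normalization (-1.21) and median centring (-1.25).

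The 3 Krüppel-like factors share a zinc finger domain that reads CACCC-like letters, and Klf2, Klf4 and Klf5 can stand in for one another in stem cells. Klf2 was at 25.8 and 29.5 TPM in ESC, 27.6 and 32.3 TPM in pESC, 12.7 and 9.44 TPM in ESC-PGCLC, 7.44 and 6.85 TPM in pESC-PGCLC and 16.1 and 9.47 TPM in PGC. Klf4 was at 27.3 and 29.1 TPM in ESC, 21.7 and 31.0 TPM in pESC, 6.48 and 7.57 TPM in ESC-PGCLC, 4.81 and 4.64 TPM in pESC-PGCLC and 11.8 and 8.02 TPM in PGC. Both were lowest in pESC-PGCLC, with no overlap with the other germ cell groups. Klf5 was at 23.7 and 20.1 TPM in ESC, 19.9 and 30.4 TPM in pESC, 20.9 and 29.7 TPM in ESC-PGCLC, 11.0 and 13.5 TPM in pESC-PGCLC and 19.1 and 20.7 TPM in PGC. For Klf5, pESC-PGCLC alone stood below the other groups, and the remaining 4 overlapped as neighbours in the order of levels.

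Klf2 fell by 1.25 ± 0.25 in ESC-PGCLC, 1.92 in pESC-PGCLC and 1.09 in PGC (largest adjusted p = 0.00692), the last no longer called without PGC library 2 (-0.74). Klf4 fell by 1.86 ± 0.22 in ESC-PGCLC, fell by 2.24 in pESC-PGCLC and fell by 1.44 in PGC (largest adjusted p = 0.000976). Klf5 differed by 0.18 (adjusted p = 0.579) in ESC-PGCLC, by -0.96 (adjusted p = 0.0132, 2.05-fold lower in mean TPM but under 2-fold on the log2(TPM + 1) scale) in pESC-PGCLC and by -0.13 (adjusted p = 0.694) in PGC. The pESC-PGCLC difference of Klf5 was called with a pseudocount of 0.1 TPM (-1.01), quantile normalization (-1.46), median centring (-1.69), voom (-1.30) and without pESC library 1 (-1.25) or pESC-PGCLC library 2 (-1.10).

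The 3 germ cell groups were compared with one another over all 10 factors. In pESC-PGCLC against ESC-PGCLC, 1 factor (Pou5f1) was called higher and 1 (Sox2) lower, where 13.4% of all tested genes were called in either direction. In PGC against ESC-PGCLC 1 was called (Pou5f1, higher, background 13.8%), and in PGC against pESC-PGCLC 1 was called (Sox2, higher, background 3.67%). The median log2 difference of the factors was 0.03, 0.31 and 0.44, beside 0.12, 0.27 and 0.11 for all genes tested, and the 3 comparisons share their libraries in pairs. With median centring, Pou5f1 in PGC against ESC-PGCLC was 0.89 (limma adjusted p = 0.0265), under 2-fold.

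Besides the called genes, 3 differences had an adjusted p under 0.05 and were under 2-fold on the log2(TPM + 1) scale, though not as ratios of mean TPM. Klf5 in pESC-PGCLC was -0.98 ± 0.24 relative to ESC-PGCLC (adjusted p = 0.0230, 2.07-fold lower in mean TPM). It was called lower with a pseudocount of 0.1 TPM (-1.03), quantile normalization (-1.40), median centring (-1.39), voom (-1.12) and without ESC-PGCLC library 1 (-1.22). Esrrb in PGC was 0.89 ± 0.24 relative to ESC-PGCLC (adjusted p = 0.0255, ratio of mean TPM 2.06), and was called with that pseudocount (1.01) and without PGC library 2 (1.12). Klf4 in PGC was 0.91 ± 0.22 relative to pESC-PGCLC (adjusted p = 0.0470, ratio 2.10), and without PGC library 2 both it (1.16) and Klf2 (1.07) were called. All 3 Krüppel-like factors had negative values in pESC-PGCLC against ESC-PGCLC and positive ones in PGC against pESC-PGCLC, with Klf2 at -0.56 (adjusted p = 0.154) and 0.72 (adjusted p = 0.105). For Zfp42 and Tfcp2l1 the 3 differences lay between 0.06 and 0.50, with adjusted p of 0.110 to 0.906 and 95% intervals reaching from -0.45 to 0.99.

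**Figure D5:**
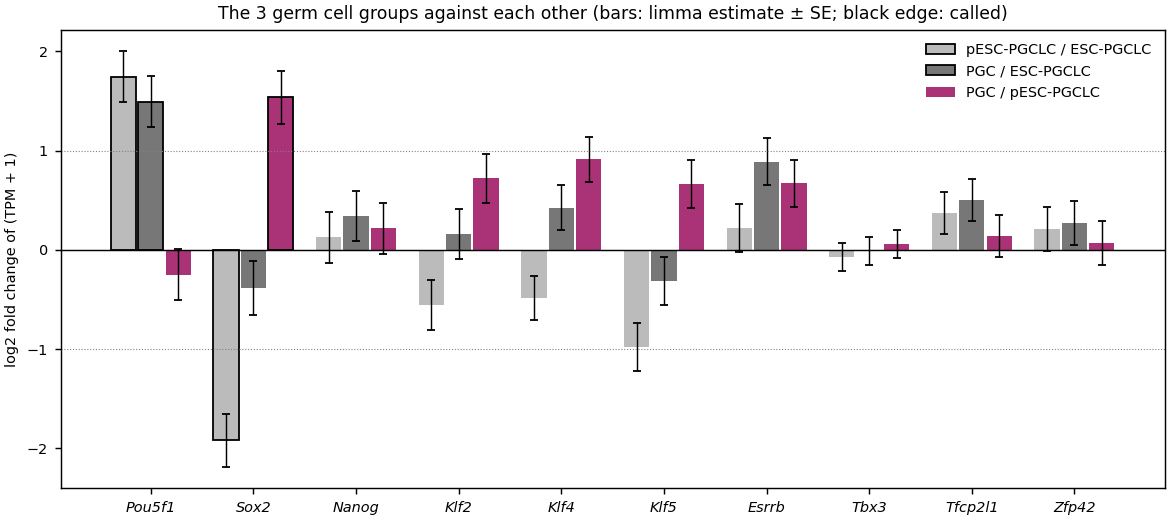
Log2 fold change of (TPM + 1) between the 3 germ cell groups for each factor, with bars for limma estimates, whiskers for standard errors, black edges for called changes and dotted lines at 2-fold. The bars past the dotted lines are those of Pou5f1 in pESC-PGCLC and in PGC against ESC-PGCLC. For Sox2 they are pESC-PGCLC against ESC-PGCLC and PGC against pESC-PGCLC.

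Whether the step from stem cell to PGCLC differed with the origin of the line was tested as an interaction, the change from pESC to pESC-PGCLC minus that from ESC to ESC-PGCLC. It was called for 3 of the 10 factors, where 19.1% of all genes tested were called. For Pou5f1 it was 3.10 ± 0.36 (adjusted p = 0.00110), since the fall was from 21.2 ± 3.15 to 0.187 ± 0.265 TPM (mean ± SD, n = 2) on the ESC side and from 7.64 ± 0.214 to 2.93 ± 0.0662 TPM on the pESC side. For Sox2 it was -2.22 ± 0.38 (adjusted p = 0.00503), with 38.7 ± 8.41 to 104 ± 9.32 TPM against 49.1 ± 18.7 to 26.8 ± 4.06 TPM. For Klf5 it was -1.14 ± 0.34 (adjusted p = 0.0481), and the adjusted p was above 0.05 without the filter on low values (0.0661), in the PGCLC and stem cell groups alone (0.0594) and on leaving out 8 of the 10 libraries in turn, namely all but pESC library 1 and ESC-PGCLC library 1 (0.0612 to 0.147). The other factors had values between -0.67 (Klf2) and 0.84 (Tfcp2l1, adjusted p = 0.0835). With median centring Klf2 (-1.41) and Klf4 (-1.12) were called, Klf2 also with quantile normalization (-1.29), and without pESC library 2 Tfcp2l1 (1.12) and Zfp42 (1.03) were. Blood and gonadal marker levels were also higher in pESC-PGCLC than in ESC-PGCLC, with 5 of 8 and 4 of 7 genes called higher (10.3% of all genes), and 1 of 9 germ cell genes, Sycp3 of the meiotic chromosome axis, was lower by 1.12 on the log2 scale (adjusted p = 0.0125, with 3.08% of all genes called lower).

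The pESC line was also set against ESC for the factors. None of the 10 was called (0 of 10, with 0.781% of all genes called by limma), and 1 of them, Pou5f1, had an unadjusted p under 0.05 (log2 difference -1.36 ± 0.26, unadjusted p = 0.000806, adjusted p = 0.0541). It was called with a filter of 1 TPM (adjusted p = 0.0346), with voom on recovered reads (0.0275) and without either PGC library (0.0483 and 0.0479), which move its value little or not at all. Tfcp2l1 and Zfp42 stood at -0.47 and -0.48, with intervals of -0.96 to 0.02 and -0.99 to 0.04, and Klf2 and Klf5 at 0.11 and 0.17.

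The factors also differed in how they went together over the libraries. Among the 8 other than Sox2 and Klf5, Pearson's r of log2(TPM + 1) over the 10 libraries ran from 0.735 to 0.986 over the 28 pairs. Sox2 had r of -0.607 (Pou5f1) to -0.0263 (Klf2) with those 8, and Klf5 had 0.00655 to 0.569. These libraries come from 5 groups, so r mainly describes 5 levels. The set of 8 leaves out Sox2 and Klf5, whose levels were already seen not to follow the rest. Of the 8, 7 were those lower in all germ cell than in all stem cell libraries, as were 10.5% of all genes tested. High r among them follows from that split and is no separate result. Of the 8534 genes averaging 5 TPM or more, the most alike were Zfp35 (0.992) and Nt5c3b (0.991) for Pou5f1, Taf1d (0.954) and Ticrr (0.946) for Sox2, Slc2a3 (0.997) and Gm9531 (0.995) for Nanog, and Cep57l1 (0.953) and Nfatc2ip (0.926) for Klf5. For the rest they were Snhg8 (0.974) and Gm28439 (0.972) for Klf2, Trim6 (0.988) and Mir5136 (0.985) for Klf4, Cat (0.976) and Scd2 (0.975) for Esrrb, Rbm3 (0.997) and Gm28434 (0.996) for Tbx3, Ccdc43 (0.998) and Hspb8 (0.997) for Tfcp2l1, and Atxn3 (0.992) and Adh5 (0.990) for Zfp42. Within the 10, the closest to Pou5f1 was Tfcp2l1 (0.909), Sox2 and Klf5 were closest to each other (0.655), and Nanog and Tfcp2l1 to each other (0.986).

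Genes around the 10 factors were read from 4 lists. Of 5 genes known as targets of Pou5f1 and Sox2, 4 fell in ESC-PGCLC against ESC, in pESC-PGCLC against pESC and in PGC against ESC, where 14.5%, 6.80% and 9.17% of all genes tested were called lower. Fgf4, the growth factor whose enhancer the pair binds, was at 42.3 and 49.2 TPM in ESC, 30.3 and 51.3 TPM in pESC and 0.0491 to 1.20 TPM in the germ cell libraries. Fbxo15, an F-box gene used as a reporter of pluripotency, was at 159 to 237 TPM in stem cells and 15.3 to 32.5 TPM in germ cells. Spp1 and Lefty1 were the other pair that fell, Spp1 from 5612 to 8221 TPM in stem cells to 56.4 to 402 TPM. Utf1, a chromatin factor of stem and germ cells, went the other way in pESC-PGCLC and PGC, while ESC-PGCLC overlapped with ESC. It was at 26.7 and 22.6 TPM in ESC, 8.81 and 6.11 TPM in pESC, 19.7 and 22.8 TPM in ESC-PGCLC, 49.0 and 60.4 TPM in pESC-PGCLC and 78.4 and 43.8 TPM in PGC. It rose in pESC-PGCLC against pESC (2.73, adjusted p = 0.000180) and in PGC against ESC (1.22, adjusted p = 0.00794), and was higher in pESC-PGCLC than in ESC-PGCLC (1.32, adjusted p = 0.0134). The median of the list was -3.67, -2.60 and -3.44 in the 3 comparisons with stem cells.

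Of 9 genes of LIF and STAT3 signalling, which feeds Klf4, Tfcp2l1 and other naive genes, 4 rose and 1 fell in ESC-PGCLC, 2 rose in pESC-PGCLC, and 4 rose in PGC, beside 15.3%, 20.8% and 23.4% of all genes called higher in those comparisons, so that the 2 of 9 in pESC-PGCLC are near the share of all genes. Jak1, a kinase of the LIF receptor, was at 2.52 to 4.65 TPM in stem cells, 27.2 to 37.6 TPM in PGCLCs and 60.3 and 52.7 TPM in PGC, and Jak2 went from 0.317 to 1.44 TPM to 7.72 to 13.2 TPM. Socs3, a feedback inhibitor induced by STAT3, was at 2.05 to 2.53 TPM in stem cells and 0.0727 to 1.07 TPM in germ cells, and fell in ESC-PGCLC (log2 change of -1.45, adjusted p = 0.000749). Pim1, a kinase gene also induced by STAT3, was at 3.25 and 3.09 TPM in ESC, 5.82 and 7.39 TPM in pESC, 8.85 and 9.69 TPM in ESC-PGCLC, 6.94 and 7.82 TPM in pESC-PGCLC and 14.4 and 12.1 TPM in PGC. It rose in ESC-PGCLC (1.30, adjusted p = 0.000410) and in PGC against ESC (1.77, adjusted p = 7.90e-05). The list had medians of 0.01, 0.33 and 0.82 in the same order of comparisons.

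Of 11 other factors of the pluripotency network, 2 rose and 3 fell in each of the same 3 comparisons, where 15.3%, 20.8% and 23.4% of all genes rose and 14.5%, 6.80% and 9.17% fell, with medians of -0.11, -0.01 and 0.22. Nr0b1 (Dax1), an orphan nuclear receptor and partner of Pou5f1, was at 127 and 132 TPM in ESC, 69.0 and 97.2 TPM in pESC, 4.88 and 5.03 TPM in ESC-PGCLC, 9.22 and 22.3 TPM in pESC-PGCLC and 11.4 and 9.12 TPM in PGC. Sall4, a zinc finger partner of Pou5f1, was at 52.7 and 68.4 TPM in pESC-PGCLC, 20.5 and 20.9 TPM in ESC-PGCLC and 38.6 and 35.7 TPM in PGC. Both were higher in pESC-PGCLC than in ESC-PGCLC, Sall4 by 1.49 (adjusted p = 0.000696) and Nr0b1 by 1.37 (adjusted p = 0.0260), and Mycn, a MYC-family factor, was lower with a log2 difference of -1.15 (adjusted p = 0.0145).

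Of 18 relatives of the 10 factors in the KLF, SOX, POU and other families, 17 were tested, and 3 rose and 3 fell in ESC-PGCLC, 2 rose and 1 fell in pESC-PGCLC, and 5 rose and 2 fell in PGC, with medians of 0.15, 0.35 and 0.48. Over all genes, 15.3%, 20.8% and 23.4% were called higher and 14.5%, 6.80% and 9.17% lower in these comparisons, not far from these counts. Sox15, a SOX factor of stem cells that can also pair with Pou5f1, was at 55.2 and 48.9 TPM in ESC, 32.4 and 42.3 TPM in pESC, 3.42 and 2.57 TPM in ESC-PGCLC, 24.7 and 30.5 TPM in pESC-PGCLC and 14.2 and 13.1 TPM in PGC. It was thus lowest where Sox2 was highest, and its log2 difference of pESC-PGCLC from ESC-PGCLC was 2.84 ± 0.19 (adjusted p = 0.000132). Klf9 fell from 10.3 to 17.7 TPM in stem cells to 0.144 to 1.21 TPM in germ cells, and Klf10 was at 6.89 to 11.9 TPM in stem cells and 19.4 to 40.9 TPM in germ cells.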

How the data were processed

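RNA-seq of 10 mouse libraries, 2 for each of 5 groups, was used. By the methods, the authors mapped clean reads to mm10 with Hisat2 and counted them with Feature-counts, while the submitters' processing notes also name Bowtie2 and RSEM. The values they deposited are TPM for 36066 gene symbols, read counts per unit of gene length with a fixed sum per library, which makes genes comparable but lets a few abundant genes lower all others. Symbols were matched to GENCODE M21 (35859 to 1 gene). TPM times exon length gave whole reads, within 0.02 reads, for 95.0% to 95.6% of values in a library.

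Values were taken as log2(TPM + 1), and 27259 genes that reached 0.1 TPM in 2 or more libraries were tested. In R 4.3.3, limma 3.58.1 fitted 5 group means over all libraries (5 residual and 2.81 prior degrees of freedom) with variances following the mean. P-values were two-sided and adjusted by Benjamini-Hochberg over all genes tested. An exact permutation test of 2 libraries against 2 reaches 0.333 at best, and limma's p-values therefore rest on its variance model. The authors compared groups with DESeq2 on counts, for which limma on the deposited TPM took the place here. The procedure was also run on simulated counts with the same mean profile in all libraries, apart from a set of well-covered changed genes. That setting does not cover broad shifts between groups or levels of a few reads, so it says nothing on those here. Figures were drawn with matplotlib 3.10.9 under Python 3.11.15 (numpy 2.4.6, pandas 2.3.3).

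The named genes are the 10 factors, up to 4 genes of each list around them with called ones first by size of change, and for each factor the other factor and the 2 other genes of highest r. The genes, lists (pluripotency network, LIF and STAT3, targets, family relatives, and markers of germ cells, fibroblasts, gonadal somatic cells, blood, endothelium and primed epiblast) and tests were chosen with earlier results of these data known. Also tried were 0.1 as pseudocount, no filter or one of 1 TPM, quantile normalization, median centring, replicate number as a block, the compared groups alone, no fold minimum, voom on recovered reads and leaving out each library. Median centring shifted each library by its median over the genes at 1 TPM or more in all 10 libraries, not over all genes tested. Adding Gm19553 reads to Pou5f1 was chosen after seeing the data. Utf1 in the comparisons with stem cells, the neighbours Gm19553, Zfp42-ps1 and Sox2ot, and the levels of Dazl and Sycp3 were named after their values were seen. Klf protein sequences and Amh were not analysed here.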

Additional observations from a re-analysis of the deposited data

Results flagged for a closer look

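The change from stem cells to PGCLCs differed between the lines, by limma's interaction test, for 3 of the 10 factors, where 19.1% of all genes tested were called. The interaction (pESC origin minus ESC origin, log2) was 3.10 for Pou5f1 (adjusted p = 0.00110), -2.22 for Sox2 (adjusted p = 0.00503) and -1.14 for Klf5 (adjusted p = 0.0481). Sox2 was higher in both ESC-PGCLC libraries than in both ESC libraries and lower in both pESC-PGCLC libraries than in both pESC libraries. Pou5f1 was lower in all PGCLC libraries than in their stem cells, and its value on the ESC side rests on 4 reads. For Klf5, leaving out any 1 of 8 libraries, or leaving out the filter on low values, ended the call.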

How the results depend on the processing

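A rise from 7 of the 10 factors cannot pass a bound of 1.5 times. In pESC-PGCLC against pESC, where 7 were called, Sox2, Klf5 and Esrrb were also called lower with quantile normalization, median centring and voom. The counts of the 10 factors called stayed within that bound under the alternatives except as follows. In PGC against ESC-PGCLC the count of 1 became 2 with a pseudocount of 0.1 or no fold minimum and 0 with median centring, and 1 to 2 on leaving out libraries. In PGC against pESC-PGCLC the count of 1 became 0 with the compared groups alone and 2 with no fold minimum, and 0 to 3 on leaving out libraries (0 without either ESC library, either pESC-PGCLC library or PGC library 1, and 3 without PGC library 2). In pESC against ESC the count of 0 became 1 with a filter of 1 TPM or voom, and 0 to 1 on leaving out libraries. The interaction count of 3 became 5 with median centring. The cause was not tested. After median centring the median log2 difference of all genes was -0.54 to 0.28 over the comparisons, against -0.06 to 0.27 on the TPM scale, and the share of called genes that were higher in pESC-PGCLC against ESC-PGCLC was 77.0% on the TPM scale, 56.4% after quantile normalization and 43.6% after centring (86.4%, 48.6% and 26.2% for PGC against ESC-PGCLC, 56.4%, 33.4% and 26.3% for PGC against pESC-PGCLC, 75.4%, 52.1% and 31.3% for pESC-PGCLC against pESC, 71.8%, 50.7% and 42.1% for PGC against ESC, 21.1%, 53.3% and 84.3% for pESC against ESC, and 81.5%, 57.6% and 29.8% for the interaction).

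Small uncalled differences changed sign with quantile normalization or median centring. In pESC-PGCLC against ESC-PGCLC these were Nanog (-0.27 and -0.29), Esrrb (-0.11 and -0.19), Zfp42 (-0.21 and -0.20) and, with centring, Tfcp2l1 (-0.040). In PGC against ESC-PGCLC they were Nanog (-0.14 and -0.27), Klf2 (-0.44 and -0.45), Klf4 (-0.17 and -0.18), Tfcp2l1 (-0.039 and -0.10) and Zfp42 (-0.069 and -0.34). In PGC against pESC-PGCLC they were Tfcp2l1 (-0.12 and -0.062) and, with centring, Zfp42 (-0.13). For the interaction they were Esrrb (-0.12 and -0.18) and, with centring, Nanog (-0.16) and Zfp42 (-0.061). On leaving out libraries, Nanog ran from -0.13 to 0.38 in pESC-PGCLC against ESC-PGCLC and Klf2 from -0.19 to 0.52 in PGC against ESC-PGCLC. In PGC against pESC-PGCLC, Nanog ran from -0.017 to 0.45, Pou5f1 from -0.58 to 0.074, Tfcp2l1 from -0.0065 to 0.27 and Zfp42 from -0.062 to 0.19. Klf5 ran from -0.059 to 0.43 in ESC-PGCLC against ESC and from -0.13 to 0.46 in pESC against ESC.

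Same-numbered libraries showed little joint deviation (correlations of -0.051 to 0.238 over 10 pairs of groups, the highest for pESC and PGC). With 2 libraries in a group, this cannot exclude shared cultures, litters or batches. With the replicate block the counts of factors called were the same in every comparison (2, 1, 1, 9, 7, 0, 8 and 3 in the order pESC-PGCLC against ESC-PGCLC, PGC against ESC-PGCLC, PGC against pESC-PGCLC, ESC-PGCLC against ESC, pESC-PGCLC against pESC, pESC against ESC, PGC against ESC and the interaction). Over single factors, 1255 of the alternative values kept their direction and side of the threshold, 43 passed it newly, 25 no longer passed it and 34 changed sign. Many of the kept values could hardly move, since leaving out a library outside the compared groups does not change their difference. Values uncalled both times also count as kept. Left out of this tally were Tbx3 between germ cell groups and in the interaction, and Sox2, Nanog, Klf4, Esrrb and Tbx3 in pESC against ESC. Depth limits Pou5f1 in ESC-PGCLC and Tbx3 in germ cells, where single reads move the levels.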

Other observations

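Genes next to the factors or like them in sequence, chosen after their values were seen, had patterns of their own. Zfp42-ps1, a processed pseudogene on chromosome 15 that shares 2.23% of the 100-base stretches of Zfp42, was at 2.88 and 3.09 TPM in ESC, 1.86 and 4.47 TPM in pESC, 29.6 and 30.1 TPM in ESC-PGCLC, 48.4 and 36.7 TPM in pESC-PGCLC and 31.7 and 40.9 TPM in PGC. Its TPM was 1.22% to 2.09% of that of Zfp42 in stem cells and 48.2% to 70.8% in germ cells. These shares are larger than those of reads, since the pseudogene has 490 exon bases and Zfp42 has 1881. In a germ cell library the pseudogene had 60 to 202 reads and Zfp42 had 478 to 1318. How the authors' counting split reads between the pair was not tested. Sox2ot, the long transcript whose gene spans Sox2 and its upstream window (chr3:34104270-34682619, GRCm38), was at 0.0871 to 0.108 TPM in stem cells and 0.330 to 0.907 TPM in germ cells, on 9 to 53 reads in a library, and was highest in both ESC-PGCLC libraries.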
